A study of Mus musculus with 12 samples.

Results

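The 10 genes described here are 9 cathepsins (Ctsa, Ctsb, Ctsc, Ctsd, Ctsh, Ctsk, Ctsl, Ctss and Ctsz) and Cst3, which encodes cystatin C. They were taken by symbol from 27570 genes that could be joined across the deposited count tables, and all 10 were among the 13942 genes that passed the filter on low counts. The samples were 12 bulk RNA sequencing libraries labelled monocytes (blood-borne cells that can become tissue macrophages) and taken from the meninges, the membranes around the brain, of male C57BL/6J mice. There were 3 libraries in each of 4 groups. The psilocybin, MDMA and vehicle groups had undergone 18 days of chronic restraint stress, were then given the named agent, and were sampled 24 hours later. The unstressed group is labelled as control, with no agent named. The sources used here give no doses, no ages and no word on pooling. Nothing in the labels says that the libraries of a group are different mice: the spread behind every p-value is that between libraries, and it may be technical.

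Cathepsins are proteases of the endosome and lysosome. They are made as inactive proenzymes, sorted to the lysosome mostly by mannose 6-phosphate, and activated there by low pH and proteolysis. Ctsb, Ctsc, Ctsh, Ctsk, Ctsl, Ctss and Ctsz encode cysteine cathepsins, Ctsd encodes an aspartic protease, and Ctsa encodes a serine carboxypeptidase that also protects lysosomal beta-galactosidase and neuraminidase. Cystatin C is a secreted inhibitor of cysteine cathepsins, and it is abundant in cerebrospinal fluid. In macrophages and other antigen-presenting cells cathepsins degrade cargo and trim the invariant chain of MHC class II.

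The libraries held 807725 counts (vehicle library 2) to 5136953 counts (MDMA library 3). Vehicle libraries 1 and 3 stood apart: 10340 and 9520 genes had a count in them, against 13458 to 17918 in the other 10 libraries. The cells' label was only in part borne out by markers. All 11 genes of a pan-myeloid list (Csf1r, Lyz2, Tyrobp and others) passed the filter, but their summed level was 215 to 845 CPM (counts of a gene per 1000000 counts of its library) in psilocybin libraries, 615 to 1250.04 CPM in MDMA libraries, 421 to 505 CPM in vehicle libraries and 313 to 468 CPM in unstressed libraries. Of these 11 genes, 6 were at 0 in each of vehicle libraries 1 and 3. Markers of choroid plexus epithelium (Ttr, Enpp2 and 8 others) summed to far more, at 64605 to 118056 CPM in psilocybin libraries, 22814 to 44568 CPM in MDMA libraries, 13090.1 to 127185 CPM in vehicle libraries and 15495 to 40489.5 CPM in unstressed libraries. In bulk RNA, fewer cells of a type and less RNA per cell cannot be told apart. The stressed files use Ensembl gene models and the unstressed files RefSeq models, and only Ctss and Ctsz have nearly the same exons in both. Each comparison with the unstressed group therefore also carries a difference in the counted exons. It is given with the members whose exons differ, but not with every other gene or list.

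RefSeq promoters (GRCm38.p6, 250 bases before to 50 after the gene's start) were at hand for 8 of the 10 genes, with 2 promoters for Ctsa. The genes without an entry are Ctsb and Ctsh. Those shown are the promoters of the members the results turn on most: Ctsl, the member that differed most evenly between libraries given a drug and the rest, Ctsd, the steadiest member over the 9 stressed libraries, and Ctss, the most variable one there. The Ctsl promoter lies at chr13:64370471-64370770 on the minus strand, the Ctsd promoter at chr7:142387778-142388077 on the minus strand and the Ctss promoter at chr3:95526536-95526835 on the plus strand. Each is written 5′ to 3′, with matches in capitals.
Ctsl: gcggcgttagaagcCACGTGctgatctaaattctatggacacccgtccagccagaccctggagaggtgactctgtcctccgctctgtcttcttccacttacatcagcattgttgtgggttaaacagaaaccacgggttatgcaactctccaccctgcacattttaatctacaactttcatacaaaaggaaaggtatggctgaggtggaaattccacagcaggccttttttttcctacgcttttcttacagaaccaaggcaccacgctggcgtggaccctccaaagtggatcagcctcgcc
Ctsd: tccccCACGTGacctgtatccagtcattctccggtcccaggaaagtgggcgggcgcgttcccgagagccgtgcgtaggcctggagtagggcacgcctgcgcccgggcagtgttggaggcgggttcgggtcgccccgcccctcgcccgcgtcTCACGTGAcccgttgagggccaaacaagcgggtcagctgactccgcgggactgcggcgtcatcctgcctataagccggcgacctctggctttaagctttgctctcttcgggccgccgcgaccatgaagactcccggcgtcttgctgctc
Ctss: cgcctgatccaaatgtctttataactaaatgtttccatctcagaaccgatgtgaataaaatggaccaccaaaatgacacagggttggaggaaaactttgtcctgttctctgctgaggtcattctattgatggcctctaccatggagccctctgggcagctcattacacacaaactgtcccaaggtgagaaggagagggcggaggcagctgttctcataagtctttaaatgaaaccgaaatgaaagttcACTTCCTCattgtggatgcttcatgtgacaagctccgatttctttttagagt
The motifs searched, on both strands, were CACGTG (the E-box core that TFEB-type factors bind), its extension TCACGTGA, which contains the core, and GAGGAAGT, a PU.1-type motif. The core stands in promoters of 3 of the 8 genes (Ctsa, Ctsd and Ctsl), the extension in those of Ctsa and Ctsd, and the PU.1-type motif in those of Ctsc and Ctss. Among all 32851 promoters in the table, 7.15% hold the core, 0.974% the extension and 3.2% the PU.1-type motif. Among 42 promoters of a list of other lysosomal genes, 28.6% hold the core and 11.9% the extension. These matches describe letters only and are not binding sites.

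Compared per length, as CPM per kilobase of exon not shared with other genes, Cst3 had the highest level of the 10 genes in all 12 libraries. Ctsd and Ctsb took the next ranks in all 12, and Ctsz had a median rank of 4. The lowest rank fell to Ctsh in 6 libraries, to Ctsk in 4 and to Ctsc in 2. Groups that do not overlap per kilobase are given below for Ctsb, Ctsc, Ctsh, Ctsk and Ctsl. The share of all genes separated in that way was not counted, so whether such separation is common between the annotations is not known. In CPM, the 9 cathepsins together took 0.249% to 0.282% of the counts in psilocybin libraries, 0.193% to 0.323% in MDMA libraries, 0.154% to 0.269% in vehicle libraries and 0.231% to 0.253% in unstressed libraries. These ranges overlap among all 4 groups. Ctsb alone supplied 35.1% to 54.6% of the cathepsin counts.

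**Figure D1:**
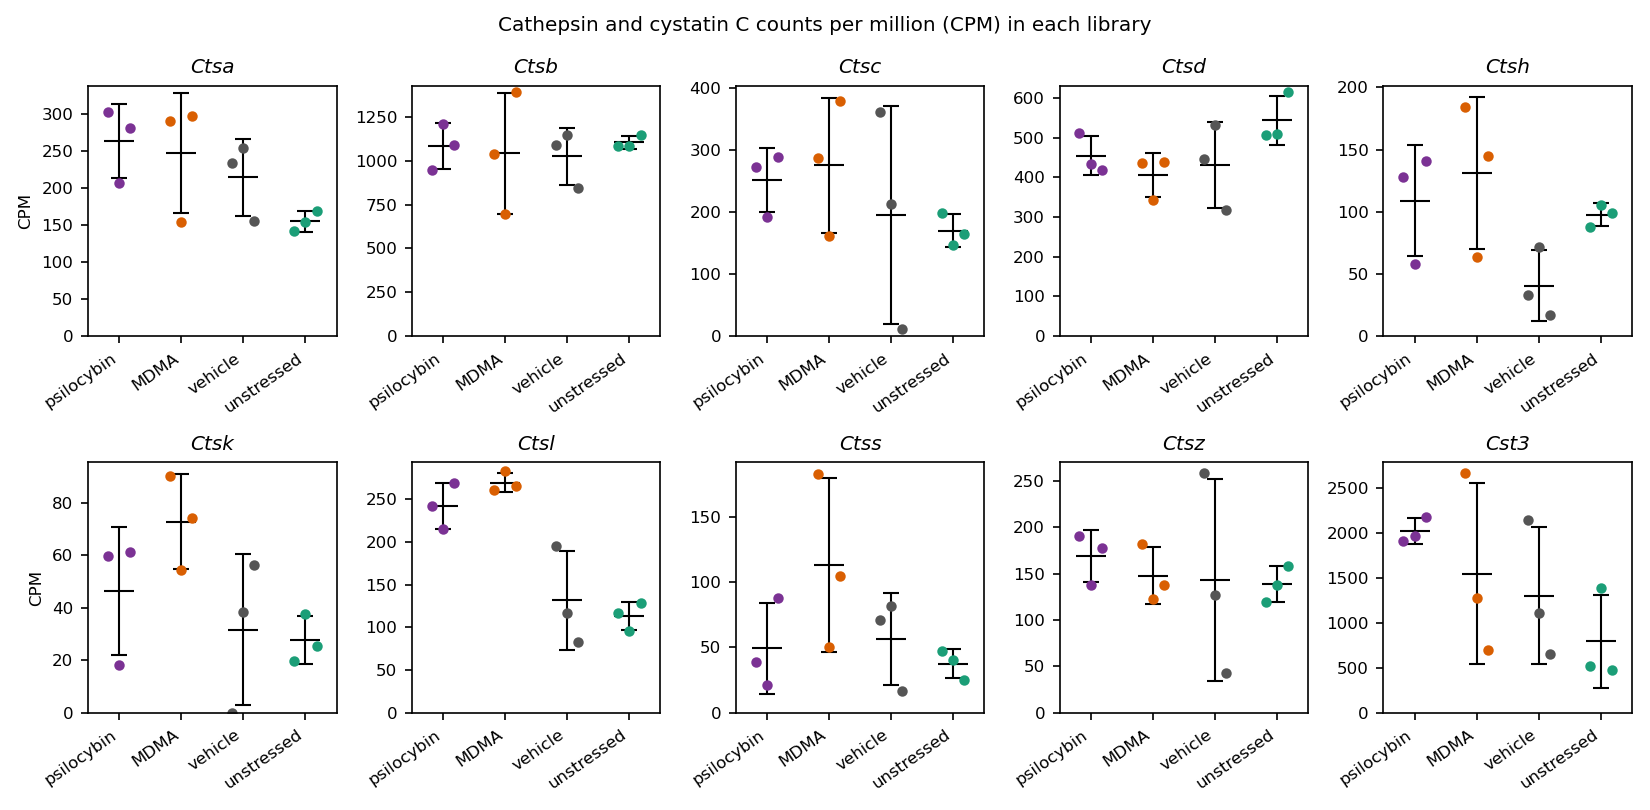
CPM (vertical axis from 0) of each of the 10 genes in 12 libraries, with 3 points a group, the mean as a wide bar and the SD as whiskers. Ctsl is the 1 panel in which all psilocybin and MDMA libraries (216 to 283 CPM) lie above all vehicle and unstressed libraries (82.9 to 195 CPM).

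Ctsl, at chr13:64359337-64370890 on the minus strand (GENCODE vM21, GRCm38), encodes cathepsin L, a cysteine endopeptidase that also processes the invariant chain in thymic epithelium. It had 242, 216 and 269 CPM in psilocybin libraries 1 to 3, 261, 283 and 265 CPM in MDMA libraries, 195, 116 and 82.9 CPM in vehicle libraries, and 116, 95.5 and 129 CPM in unstressed libraries. In CPM, both drug groups lay wholly above both other groups, and vehicle library 1 was the nearest to them. Under the TMM scaling used for the fold changes (factor 0.9251 for vehicle library 1, 1.039 for psilocybin library 2), vehicle library 1 passed psilocybin library 2. The separation of psilocybin from vehicle therefore depends on the scaling. The mean was 242 ± 26.8 CPM with psilocybin, 269.8 ± 11.5 CPM with MDMA, 132 ± 57.8 CPM with vehicle and 114 ± 16.8 CPM without stress (SD, n = 3 each). Ordered from low to high, vehicle exceeded unstressed by 18.0 CPM, which is below the vehicle SD, psilocybin exceeded vehicle by 111 CPM, more than either SD, and MDMA exceeded psilocybin by 27.4 CPM, just above the psilocybin SD and with overlapping ranges. An arrangement with the 6 drug libraries above the other 6 was found for 1.15% of the 13942 genes, the reverse for 0.273%, and the 6 drug libraries lay above the 3 vehicle libraries for 12.9%; these groupings were chosen after the Ctsl values were seen.

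No contrast of Ctsl passed the threshold, an edgeR adjusted p below 0.05 over all genes tested. The log2 fold change was 0.73 ± 0.43 (SE; 95% interval -0.19 to 1.65; edgeR adjusted p = 0.448) for psilocybin over vehicle and 0.84 ± 0.43 (-0.08 to 1.76; adjusted p = 0.351) for MDMA over vehicle. Over unstressed libraries it was 1.099 ± 0.43 (0.18 to 2.02; edgeR adjusted p = 0.63) for psilocybin and 1.21 ± 0.43 (0.29 to 2.13; adjusted p = 0.581) for MDMA. The Ensembl model has 4747 unshared exonic bases and the RefSeq model 3552. Per kilobase of these, the drug libraries (45.4 to 59.6 CPM per kb) lay above the unstressed ones (26.9 to 36.3 CPM per kb). Of the 6489 Ensembl exonic bases, 1742 overlap Gm47123 on the other strand and were left out. Whether counting of the stressed libraries used strand is not stated. If it did, their levels per kilobase would be lower, so this separation depends on the length used. When the fit held only the 6 psilocybin and unstressed libraries, the Ctsl value was 1.11 ± 0.25 with an edgeR adjusted p of 0.0309. In that fit 1377 of the 13367 genes tested passed, with Ctsl as 1 of the 10 members. Without vehicle libraries 1 and 3, vehicle is library 2 alone, with 807725 counts, and is assumed to vary like the other groups; psilocybin over vehicle was then 1.09 ± 0.42 (edgeR adjusted p = 0.321) and MDMA over vehicle 1.29 ± 0.42 (adjusted p = 0.209). With all 12 libraries Ctsl did not pass the test of any difference among the 4 groups (edgeR adjusted p = 0.317). Summed neutrophil markers were 108, 196 and 1088 CPM in psilocybin libraries, 2682, 576 and 2298 CPM in MDMA libraries, 133, 224 and 92.1 CPM in vehicle libraries and 73.2, 40.7 and 25.8 CPM in unstressed libraries. MDMA libraries lay above both other groups, whereas psilocybin libraries 1 and 2 lay within the vehicle range; the part of these cells in the Ctsl values was not tested.

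Ctsh, at chr9:90054152-90076089 on the plus strand, encodes cathepsin H, an aminopeptidase. It had 128, 57.7 and 141 CPM in psilocybin libraries, 184, 64.0 and 145 CPM in MDMA libraries, 33.4, 71.8 and 16.9 CPM in vehicle libraries, and 87.5, 106 and 99.0 CPM in unstressed libraries. In CPM, the vehicle group lay wholly below the unstressed group, while each drug group overlapped both. Library 2 of each drug group was low, and vehicle library 2 was the highest of its group. The log2 fold change was 1.39 ± 0.59 (95% interval 0.13 to 2.65; edgeR adjusted p = 0.262) for psilocybin over vehicle, 1.56 ± 0.59 (0.30 to 2.83; adjusted p = 0.185) for MDMA over vehicle, and -1.22 ± 0.59 (-2.47 to 0.04; adjusted p = 0.288) for vehicle over unstressed. None passed. These values rest on the vehicle libraries taken in. Without vehicle library 2, psilocybin over vehicle was 1.79 (edgeR adjusted p = 0.0493) and MDMA over vehicle 1.999 (adjusted p = 0.0332). In that fit 3575 and 3652 of all 13942 genes also passed in these 2 comparisons, so passing was common there. With vehicle library 2 as the only vehicle library, psilocybin over vehicle was 0.64, MDMA over vehicle 0.89 and vehicle over unstressed -0.47. The Ensembl model of Ctsh has 4499 unshared exonic bases, 2.69 times the 1670 of the RefSeq model, so levels in stressed and unstressed libraries are not on 1 scale: per kilobase, the psilocybin mean was 24.2, the MDMA mean 29.1, the vehicle mean 9.05 and the unstressed mean 58.3 CPM per kb.

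Ctsc, at chr7:88278085-88310888 on the plus strand, encodes cathepsin C, the dipeptidyl peptidase that activates granule serine proteases. It had 274, 193 and 289 CPM in psilocybin libraries, 287, 161 and 379 CPM in MDMA libraries, 362, 213 and 12.3 CPM in vehicle libraries, and 199, 147 and 165 CPM in unstressed libraries. Vehicle library 3 held 24 counts of it, and the other vehicle libraries lay within the range of the remaining groups. All 4 group ranges overlap in CPM. The RefSeq model has 11143 unshared exonic bases and the Ensembl model 5808; per kilobase, psilocybin libraries (33.2 to 49.8 CPM per kb) and MDMA libraries (27.8 to 65.3 CPM per kb) lay wholly above unstressed ones (13.2 to 17.8 CPM per kb). The log2 fold changes over vehicle were 0.32 ± 0.72 for psilocybin (95% interval -1.22 to 1.85) and 0.36 ± 0.72 for MDMA (-1.17 to 1.89), and the interval for vehicle over unstressed ran from -1.27 to 1.79. Signs turned with the vehicle libraries taken in: psilocybin over vehicle was 1.28 without vehicle library 1 and -0.34 without library 3, MDMA over vehicle 1.32 and -0.22, and vehicle over unstressed -0.70 and 0.92.

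Ctsz, at chr2:174427493-174439039 on the minus strand, encodes cathepsin Z (also called X), a carboxypeptidase. It had 191, 138 and 178 CPM in psilocybin libraries, 182.5, 123 and 138 CPM in MDMA libraries, 259, 127.5 and 43.0 CPM in vehicle libraries, and 119.7, 138 and 159 CPM in unstressed libraries. The vehicle group held both the highest and the lowest of the 12 values, and its sign against other groups turned on library 1. MDMA over vehicle was -0.12 ± 0.54 with all libraries and 0.69 ± 0.46 without vehicle library 1, and vehicle over unstressed was 0.16 ± 0.54 with all libraries and -0.65 ± 0.46 without it. Psilocybin over vehicle was 0.14 ± 0.54 with all libraries, 0.95 ± 0.46 without vehicle library 1 and -0.36 ± 0.40 without vehicle library 3.

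Ctss, at chr3:95526786-95556403 on the plus strand, encodes cathepsin S, which removes the invariant chain from MHC class II in antigen-presenting cells and keeps its activity at neutral pH. It had 38.8, 21.1 and 88.0 CPM in psilocybin libraries, 183, 50.7 and 105 CPM in MDMA libraries, 70.9, 81.7 and 16.4 CPM in vehicle libraries, and 47.1, 40.4 and 25.1 CPM in unstressed libraries. The MDMA libraries lay above all unstressed libraries and overlapped both other groups. MDMA over unstressed was 1.51 ± 0.73 on the log2 scale (95% interval -0.04 to 3.07; edgeR adjusted p = 0.999), and this gene has nearly the same exons in both annotations. Psilocybin over MDMA was -1.12 ± 0.72 (-2.65 to 0.42), and -1.77 ± 0.87 without psilocybin library 3. Pan-myeloid markers were also highest in MDMA libraries, with group means of 445 ± 347 CPM for psilocybin, 1028 ± 358 CPM for MDMA, 473 ± 45.7 CPM for vehicle and 372 ± 84.6 CPM without stress (SD, n = 3 each); their part in the Ctss values was not tested.

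Ctsk, at chr3:95499256-95509362 on the plus strand, encodes cathepsin K, the collagenolytic protease of osteoclasts. It had 59.5, 18.1 and 61.3 CPM in psilocybin libraries, 90.0, 54.2 and 74.2 CPM in MDMA libraries, 0, 38.4 and 56.3 CPM in vehicle libraries, and 19.7, 37.7 and 25.5 CPM in unstressed libraries. The 0 in vehicle library 1 allows up to 0.828 CPM at 3 counts, and the MDMA libraries lay wholly above the unstressed ones. Intervals were the widest of the 10 genes: MDMA over unstressed was 1.34 ± 1.19 (95% interval -1.19 to 3.88) and MDMA over vehicle 0.87 ± 1.18 (-1.65 to 3.39). The value of MDMA over vehicle was 0.27 without vehicle library 1, 2.06 without vehicle library 3 and 3.10 with limma voom. The Ensembl model has 1512 unshared exonic bases and the RefSeq model 2174; per kilobase the MDMA libraries (35.8 to 59.5 CPM per kb) also lay above the unstressed ones (9.05 to 17.3 CPM per kb). Summed osteoclast markers (Acp5, Nfatc1 and 6 others) reached only 37.3 to 66.4 CPM with psilocybin, 33.9 to 93.6 CPM with MDMA, 9.38 to 91.6 CPM with vehicle and 75.8 to 90.2 CPM without stress, and Calcr, the calcitonin receptor, was at 0 in all 12 libraries. Fibroblast markers summed to 1887 to 3905 CPM with psilocybin and 6450 to 13347 CPM with MDMA. They summed to 740.4 to 5809 CPM with vehicle and 3851 to 6628 CPM without stress. In MDMA against unstressed, 5 of these 10 markers were higher and the rest lower. Their median log2 fold change there was 0.09, against 0.04 for all genes. The part of either cell type in the Ctsk values was not tested.

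Ctsb, at chr14:63122462-63145923 on the plus strand, encodes cathepsin B, an endopeptidase and carboxypeptidase. It had 948, 1209.9 and 1090.4 CPM in psilocybin libraries, 1037, 698 and 1391 CPM in MDMA libraries, 1087, 1148 and 842 CPM in vehicle libraries, and 1081, 1084 and 1149 CPM in unstressed libraries. All 4 groups overlap in CPM, with means from 1026 to 1105 CPM. The Ensembl model has 5277 unshared exonic bases and the RefSeq model 3969; per kilobase, psilocybin (180 to 229 CPM per kb), MDMA (132 to 264 CPM per kb) and vehicle libraries (160 to 217 CPM per kb) all lay below the unstressed ones (272 to 289 CPM per kb). Every contrast lay between -0.21 and 0.13 on the log2 scale, and the 95% interval for psilocybin over vehicle was -0.78 to 0.62 and for MDMA over vehicle -0.91 to 0.49. Over all 6 comparisons the intervals reach from -0.91 to 0.83.

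Ctsd, at chr7:142375911-142388038 on the minus strand, encodes cathepsin D, the main aspartic protease of the lysosome. It had 511.5, 435 and 418 CPM in psilocybin libraries, 436, 342 and 440.1 CPM in MDMA libraries, 447, 532 and 317 CPM in vehicle libraries, and 507, 509 and 616 CPM in unstressed libraries. The MDMA libraries lay wholly below the unstressed ones in CPM, with a log2 fold change of -0.48 ± 0.34 (95% interval -1.20 to 0.25). Per kilobase of unshared exon the ranges overlap (222 to 285 CPM per kb with MDMA, 259 to 315 CPM per kb without stress), since the Ensembl model has 1543 such bases and the RefSeq model 1954. Of the 2351 Ensembl exonic bases, 808 overlap Gm49369 on the same strand, and the RefSeq model has no such overlap. The part of this overlap in the Ctsd counts was not tested.

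Ctsa, at chr2:164832873-164841032 on the plus strand, encodes cathepsin A. It had 302, 206 and 281 CPM in psilocybin libraries, 289.6, 153 and 297 CPM in MDMA libraries, 233, 254 and 156 CPM in vehicle libraries, and 142, 153 and 169 CPM in unstressed libraries. Psilocybin libraries lay above the unstressed ones (0.78 ± 0.40 on the log2 scale; 95% interval -0.07 to 1.63; edgeR adjusted p = 0.839). The Ensembl model has 3896 unshared exonic bases and the RefSeq model 2806, and per kilobase the ranges overlap (52.9 to 77.5 CPM per kb with psilocybin, 50.5 to 60.1 CPM per kb without stress). Its exons overlap those of Neurl2 and Pltp on the other strand, and counting is not stated to use strand.

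Cst3, at chr2:148871722-148875692 on the minus strand, had 1909.9, 1959.8 and 2178 CPM in psilocybin libraries, 2661, 1272 and 700.6 CPM in MDMA libraries, 2138, 1108 and 651 CPM in vehicle libraries, and 516, 1381 and 475 CPM in unstressed libraries. The psilocybin libraries were close together, whereas the other 3 groups each spanned a wide range. Psilocybin over unstressed was 1.38 ± 0.55 (95% interval 0.20 to 2.55; edgeR adjusted p = 0.639), psilocybin over vehicle 0.50 ± 0.54 (-0.66 to 1.66; adjusted p = 0.726) and MDMA over vehicle 0.06 ± 0.54 (-1.10 to 1.21; adjusted p = 0.978). Psilocybin over unstressed was 2.01 without unstressed library 2 (edgeR adjusted p = 0.286), and psilocybin over vehicle 1.07 without vehicle library 1 (adjusted p = 0.284). The psilocybin libraries lay wholly above the unstressed ones in CPM but not per kilobase (1509 to 1721 CPM per kb with psilocybin, 597 to 1735 CPM per kb without stress), as the Ensembl model has 1266 unshared bases and the RefSeq model 796. Summed choroid plexus markers were also higher in psilocybin libraries than in unstressed ones, as given above. In the fit 7 of these 10 markers were higher and the rest lower, with a median log2 fold change of 0.62. Within the unstressed group, library 2 had the most Cst3 and the lowest sum of these markers (15495 CPM). The part of these markers in the Cst3 difference was not tested.

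**Figure D2:**
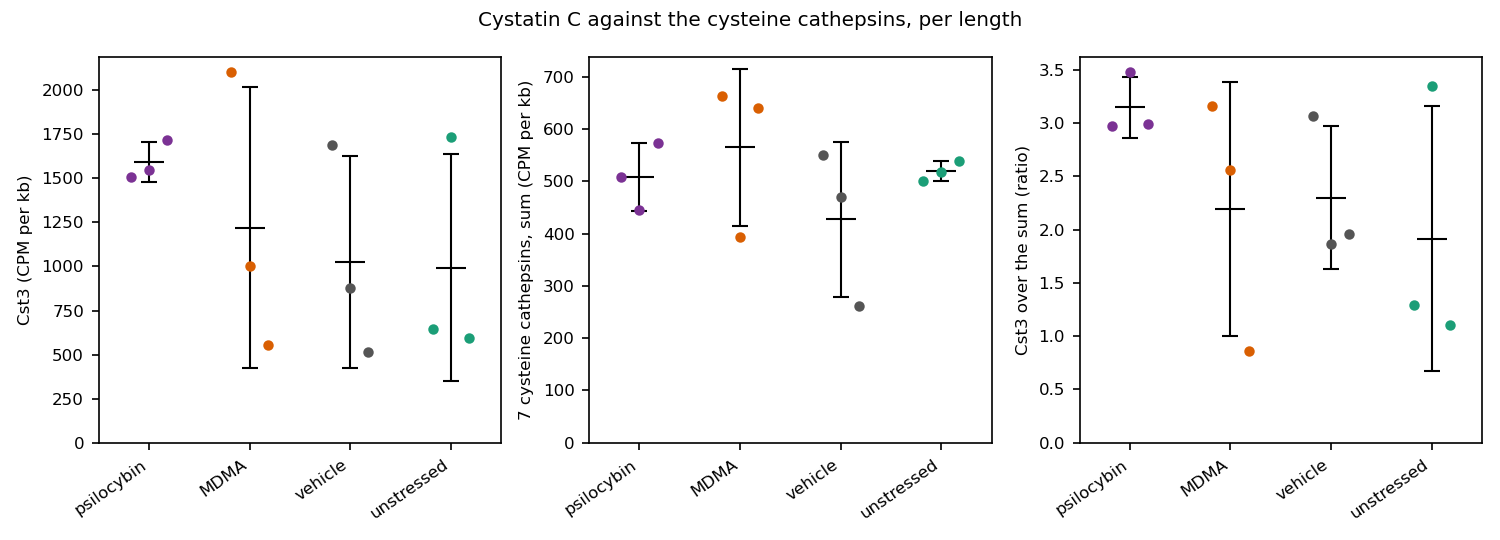
Level of Cst3 (left), summed level of the 7 cysteine cathepsins (middle), both in CPM per kilobase of unshared exon, and the ratio of the first to the second (right) in 12 libraries, with group mean and SD. The ratio was 2.97 to 3.48 in psilocybin libraries and spread from 0.865 to 3.35 over the other 3 groups.

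Set against its target enzymes, the Cst3 level per kilobase was 2.97, 3.48 and 2.997 times the summed level of the 7 cysteine cathepsins in psilocybin libraries, 3.17, 2.56 and 0.865 times in MDMA libraries, 3.07, 1.86 and 1.96 times in vehicle libraries, and 1.29, 3.35 and 1.11 times in unstressed libraries. MDMA library 3 was the 1 library in which the summed cathepsins exceeded the inhibitor. The 3 psilocybin libraries fell in a narrow range, but the highest values of the MDMA, vehicle and unstressed groups lay within it. The ratio of Ctsl to Ctsb counts, which does not depend on library size, was 0.256, 0.178 and 0.247 in psilocybin libraries, 0.252, 0.406 and 0.191 in MDMA libraries, 0.18, 0.101 and 0.0984 in vehicle libraries, and 0.108, 0.0881 and 0.112 in unstressed libraries. Vehicle library 1, at 0.1797, passed psilocybin library 2, at 0.1782, so on this ratio the drug libraries no longer stood wholly above the vehicle libraries.

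**Figure D3:**
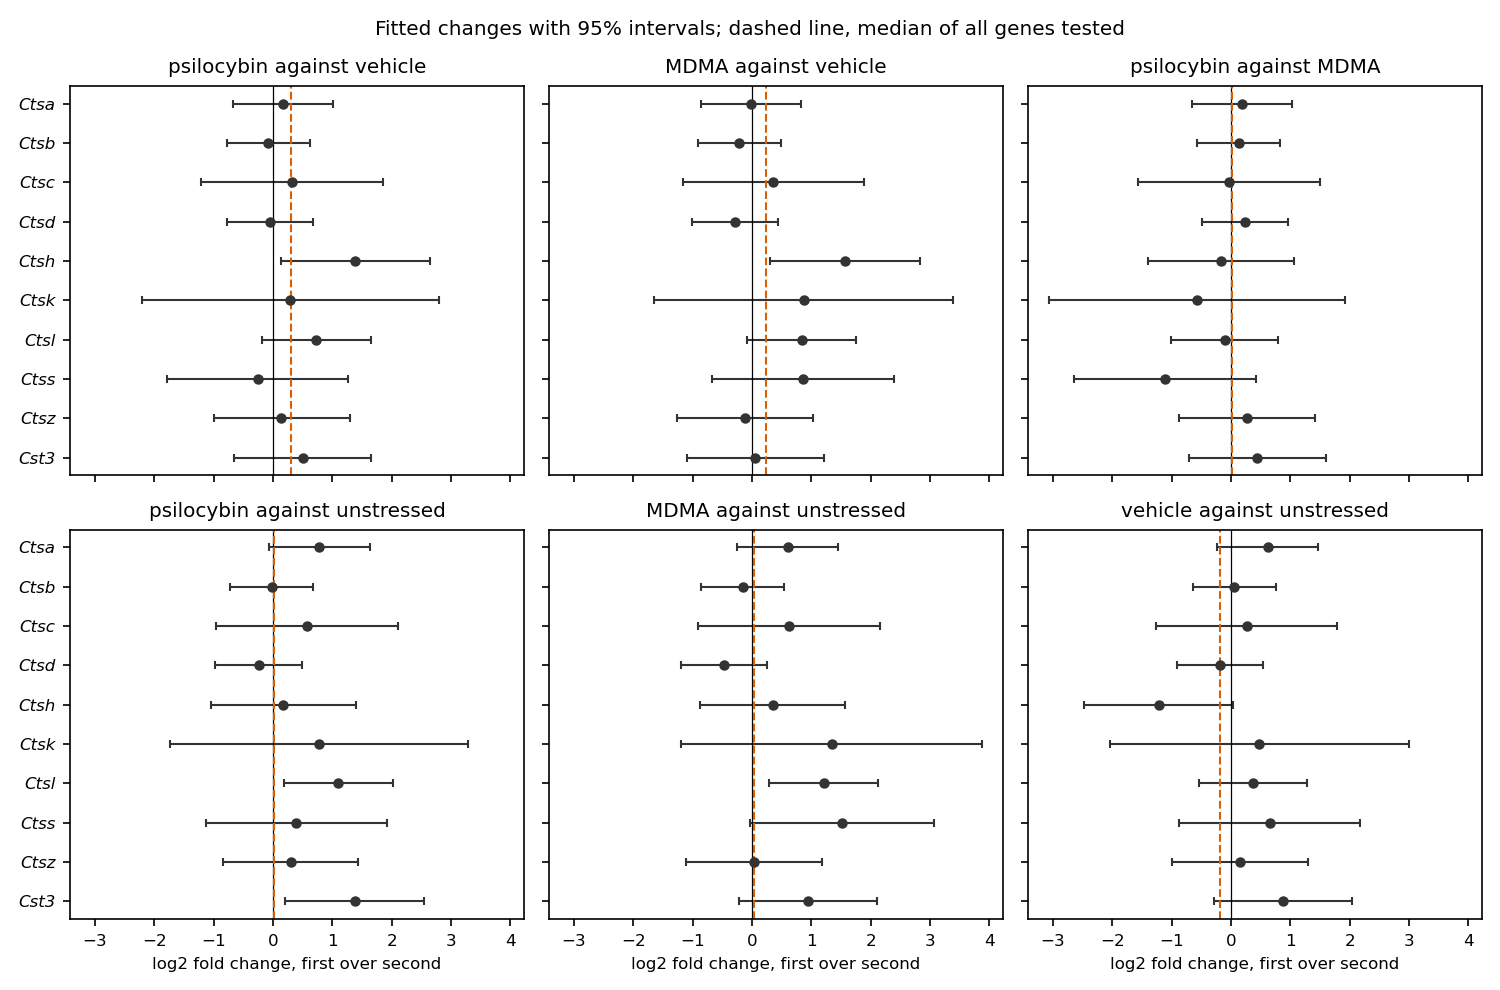
Fitted log2 fold change (horizontal axis, first named group over the second) of the 10 genes in the 6 comparisons, with 95% intervals from the edgeR fit and the median of all genes tested as a dashed line. The interval lies above 0 for Ctsh in both drug comparisons with vehicle, for Ctsl in both drug comparisons with unstressed libraries and for Cst3 in psilocybin against unstressed.

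Psilocybin against vehicle, both after stress, called 0 of the 10 genes, beside 0.0143% of all genes tested. An unadjusted edgeR p below 0.05 was found for 1 (Ctsh), beside 16% of all genes. In CPM, Ctsl was the 1 gene whose psilocybin libraries lay wholly above the vehicle libraries, an arrangement that 20.8% of all genes showed. Wholly below lay 0 of the 10, beside 2.62%. The 10 log2 fold changes ran from -0.26 (Ctss) to 1.39 (Ctsh), with 7 above 0 and a median of 0.23, and the median of all genes was 0.31.

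MDMA against vehicle likewise called 0 of the 10, beside 0.674% of all genes, and 1 (Ctsh) had an unadjusted edgeR p below 0.05, beside 16.7%. Ctsl again was the 1 gene wholly above vehicle, as were 16.8% of all genes, and 0 of the 10 lay wholly below, beside 1.87%. The fold changes ran from -0.28 (Ctsd) to 1.56 (Ctsh), with 6 above 0 and a median of 0.21 against 0.24 for all genes.

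Psilocybin against MDMA called 0 of the 10 and 0% of all genes by edgeR, and 0 genes by DESeq2 or limma voom, with an unadjusted edgeR p below 0.05 for 0 of the 10 and for 81 of all genes (0.581%). Groups overlapped for all 10 genes, while 7.75% of all genes lay wholly higher and 8.33% wholly lower with psilocybin. The median of the 10 was 0.04.

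Vehicle against unstressed differs in stress, in the vehicle given and in the gene models counted, and these cannot be told apart. It called 0 of the 10, beside 3.42% of all genes. An unadjusted edgeR p below 0.05 was found for 0 of the 10, beside 18.5%. Ctsh was the 1 gene wholly lower in vehicle libraries, as were 17.8% of all genes, and 0 of the 10 lay wholly higher, beside 2.77%. The median of the 10 was 0.31, with 8 above 0, and that of all genes was -0.18, with 45.0% above 0.

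Psilocybin against unstressed called 0 of the 10, beside 0.0861% of all genes, and MDMA against unstressed called 0 of the 10, beside 0.122%. An unadjusted edgeR p below 0.05 was found for Ctsl and Cst3 with psilocybin, beside 6.33% of all genes, and for Ctsl with MDMA, beside 4.97%. In CPM, psilocybin libraries lay wholly above unstressed ones for 3 of the 10 (Ctsa, Ctsl and Cst3), as they did for 18.3% of all genes. MDMA libraries lay wholly above for 3 (Ctsk, Ctsl and Ctss), beside 11.7%, and wholly below for 1 (Ctsd), beside 10.7%. The median of the 10 was 0.49 for psilocybin and 0.61 for MDMA, against 0.01 and 0.04 for all genes. These comparisons share their unstressed libraries. The test of any difference among the 4 groups called 0 of the 10, beside 0.581% of all genes, and Ctsl was the 1 of the 10 with an unadjusted edgeR p below 0.05, beside 14.3%. DESeq2 and limma voom, run on the same 12 libraries, also called 0 of the 10 in all 6 comparisons and in the test of any difference.

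**Figure D4:**
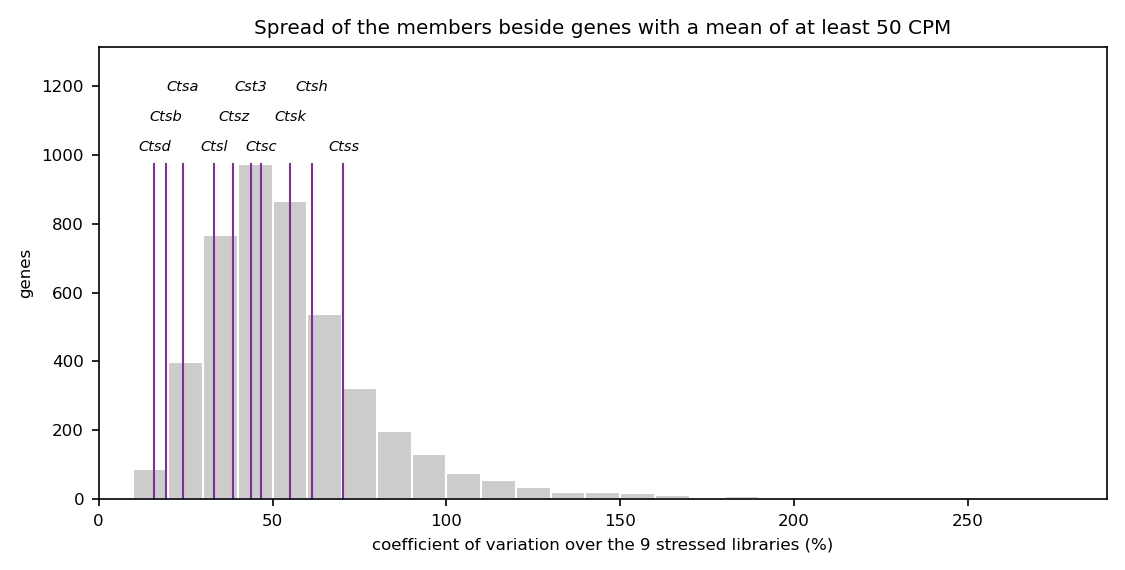
Number of genes (vertical axis) by coefficient of variation in CPM over the 9 stressed libraries (horizontal axis, in percent), for the 4555 tested genes with a mean of at least 50 CPM, with the 10 genes as lines. Ctsd and Ctsb lie at the low end (16.05% and 19.4%), and Ctss lies furthest right (70.4%).

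The 10 genes differed widely in how steady they were. Over the 9 stressed libraries, which share 1 annotation, the coefficient of variation in CPM was 16.05% for Ctsd, 19.4% for Ctsb and 24.2% for Ctsa, beside a median of 50.5% among 4555 genes with a mean of at least 50 CPM. Only 0.549%, 1.65% and 4.7% of those genes varied less than Ctsd, Ctsb and Ctsa. Ctss, at 70.4%, varied more than 80.2% of them. Over the 6 drug libraries alone, Ctsl was the steadiest of the 10 at 9.28%, and 2.22% of 4585 genes varied less. Ctss was again the most variable there, at 72.7%, with a ratio of 8.67 between its highest and lowest library.

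Genes whose TMM-scaled log2 CPM followed a member most closely over the 9 stressed libraries were taken as the top 2 of 8195 genes by Pearson's r. They are given as a description with no p. Ctsl went with Mospd2 (r = 0.971) and Adgrv1 (0.956), and Ctsh with Gja1 (0.954), a connexin of astrocytes and other cells, and Serpinh1 (0.949), a collagen chaperone. Ctss went with Hbb-bs (0.923), a beta-globin gene that shares sequence with its paralog, and with the class II gene H2-Aa (0.913). Ctsk went with Mfap4 (0.995), an extracellular matrix gene, and Serpinb9 (0.995), and Ctsc with Acer2 (0.996) and Tubgcp2 (0.993). Ctsk is at 0 in vehicle library 1 and Ctsc near 0 in vehicle library 3; without that library, an alternative chosen after the data were seen, r was 0.960 with Mfap4 and 0.941 with Serpinb9 for Ctsk, and 0.953 with Acer2 and 0.936 with Tubgcp2 for Ctsc. Cst3 went with Rps14 (0.96) and Ndufaf3 (0.947), Ctsz with Psma1 (0.978) and Rcn2 (0.973), Ctsa with Pmp22 (0.903) and Tmbim6 (0.89), Ctsb with Ino80c (0.949) and Brpf1 (0.926), and Ctsd with Rsph1 (0.896) and Cab39l (0.873). Among the 10 genes themselves, the closest pairs were Ctsc with Ctsz (0.854) and Ctsz with Cst3 (0.709), and the most opposed was Ctsk with Ctsz (-0.591). Without vehicle library 1, Ctsk with Ctsz was at -0.068, and without vehicle library 3, Ctsc with Ctsz was at 0.696. All points share library depth and composition.

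**Figure D5:**
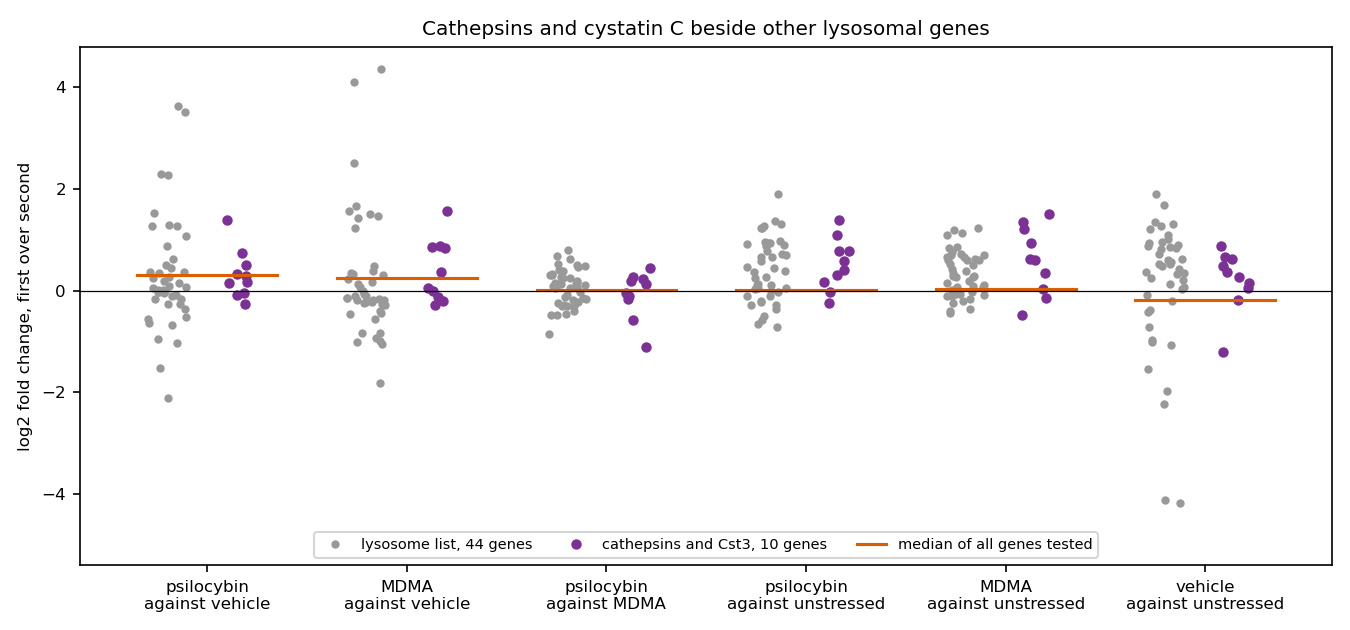
Fitted log2 fold changes (vertical axis, first named group over the second) of 44 other lysosomal genes (grey) and the 10 cathepsin and cystatin C genes (purple) in the 6 comparisons, with the median of all genes tested as an orange bar. Against vehicle the lysosomal medians (0.06 for psilocybin, -0.13 for MDMA) lie below those of all genes (0.31 and 0.24).

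The wider lysosomal machinery gave no call either. Of 44 other lysosomal genes (acid hydrolases, membrane proteins and proton pump subunits), all 44 were tested and 0 passed in any of the 6 comparisons. Without adjustment, edgeR p was below 0.05 for 4 of the 44 in psilocybin against vehicle (2 higher, 2 lower), beside 16% of all genes, and for 5 in MDMA against vehicle (3 higher, 2 lower), beside 16.7%. It was for 6, all higher, in psilocybin against unstressed, beside 6.33%, for 4, all higher, in MDMA against unstressed, beside 4.97%, and for 9 in vehicle against unstressed (7 higher, 2 lower), beside 18.5%. In psilocybin against MDMA that count was 0, beside 0.581%. Their median log2 fold change was 0.06 for psilocybin over vehicle and -0.13 for MDMA over vehicle, against 0.31 and 0.24 for all genes. Over unstressed libraries it was 0.37 for psilocybin, 0.29 for MDMA and 0.45 for vehicle. The summed level was 8766 to 9248 CPM in psilocybin libraries, 5894 to 10027 CPM in MDMA libraries, 6599 to 9508 CPM in vehicle libraries and 5559 to 6547 CPM in unstressed libraries. Of the 44 genes, 7 were at 0 in vehicle library 1 and 5 in vehicle library 3, and at most 1 in any other library.

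Named lysosomal genes followed in every comparison also stayed short of the threshold. The log2 fold changes over the 6 comparisons ran from -0.26 to 0.24 for Lamp1, a lysosomal membrane protein, and from -0.14 to 0.70 for Psap, the precursor of the saposins. They ran from -0.23 to 0.93 for Lgmn, the asparaginyl endopeptidase that helps process cathepsins, from -0.39 to 0.75 for Grn, which encodes progranulin, and from -0.44 to 0.77 for Cd63, a tetraspanin of late endosomes. The highest of these, for Lgmn in vehicle over unstressed libraries, had an edgeR adjusted p of 0.26.

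Of 5 other cathepsins (Ctse, Ctsf, Ctsg, Ctso and Ctsw), 0 passed in any comparison. Ctso came nearest in vehicle over unstressed libraries, at 1.56 ± 0.54 (edgeR adjusted p = 0.129), with 216, 144 and 328 CPM in vehicle libraries and 78.3, 90.5 and 114 CPM in unstressed libraries, and vehicle libraries wholly higher, as for 2.77% of all genes. Its Ensembl model has 5123 unshared exonic bases and its RefSeq model 3468. Ctsg, a neutrophil granule protease activated by cathepsin C, was at 1.18, 1.15 and 6.62 CPM in psilocybin libraries, 11.8, 0 and 17.7 CPM in MDMA libraries and 0, 2.48 and 0 CPM in vehicle libraries, and at 0 in all 3 unstressed libraries. Of 8 other cathepsin inhibitors, 5 were tested and 0 passed. Over vehicle, 4 of the 5 were higher with psilocybin (median log2 fold change 1.71) and 3 with MDMA (1.59). Of all genes, 59.8% and 57.1% were higher there, with medians of 0.31 and 0.24. Over unstressed libraries the inhibitors' medians were 0.03 and 0.10. Of the 8 inhibitors, 6, 3 and 4 were at 0 in vehicle libraries 1 to 3. In library order, 2, 1 and 1 were at 0 with psilocybin, 1, 2 and 1 with MDMA, and 2, 1 and 3 without stress. The 8 summed to 182 to 262 CPM in psilocybin libraries and 167 to 238 CPM in MDMA libraries. They summed to 61.9 to 109 CPM in vehicle libraries and 130 to 161 CPM in unstressed libraries. Cstb, which encodes the intracellular inhibitor cystatin B, had 110, 105 and 109 CPM in psilocybin libraries, 81.3, 29.0 and 26.5 CPM in MDMA libraries, 91.6, 45.8 and 1.02 CPM in vehicle libraries, and 24.1, 56.6 and 19.1 CPM in unstressed libraries. Psilocybin was at 1.73 ± 0.98 over unstressed (edgeR adjusted p = 0.914) and at 1.17 ± 0.97 over vehicle (adjusted p = 0.626).

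Of 16 genes for lysosomal sorting and the TFEB family (M6pr, Igf2r, Sort1, Tfeb and others), 15 were tested and 0 passed. Of 10 genes for MHC class II processing, 9 were tested and 1 passed in 1 comparison, where 3.42% of all genes did: Ciita, the class II transactivator, fell in vehicle libraries (0.276, 0 and 0 CPM) against unstressed libraries (2.03, 11.2 and 18.2 CPM), with a log2 fold change of -5.75 ± 1.42 (edgeR adjusted p = 0.045). At 3 counts, a value of 0 allows up to 3.71 CPM in vehicle library 2, above unstressed library 1, and up to 1.54 CPM in vehicle library 3, which with vehicle library 1 lacks many genes. Of 108 genes tested in the cell type lists, 2 passed in vehicle against unstressed (Itgax and Igf2), beside 3.42% of all genes, 1 in MDMA against unstressed (S100a9), beside 0.122%, and 0 in the other 4 comparisons. S100a9, a neutrophil alarmin gene, rose in MDMA libraries (253, 35.3 and 69.5 CPM) against unstressed libraries (0.339, 0.748 and 1.11 CPM; 7.14 ± 1.18; edgeR adjusted p = 0.0319). Itgax, the dendritic cell integrin gene, was at 0 in all 3 vehicle libraries against 8.48, 2.49 and 11.5 CPM in unstressed libraries (edgeR adjusted p = 0.0425); the limit of 3.71 CPM in vehicle library 2 is above unstressed library 2. Igf2, an insulin-like growth factor made by meningeal fibroblasts, fell in vehicle libraries (16.8, 9.90 and 1.02 CPM) against unstressed libraries (224, 279 and 238 CPM; -4.63 ± 0.79; edgeR adjusted p = 0.0199). The Igf2 model has 2029 unshared exonic bases in Ensembl and 4890 in RefSeq. Ciita has 9206 in Ensembl and 7393 in RefSeq, and Itgax has 4803 and 4178.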

How the data were processed

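Cells were isolated with a MACS monocyte kit, RNA was extracted with PicoPure, and 5 ng went into each NEBNext library, per the labels' protocols. The authors deposited raw counts of reads for each gene. STAR 2.7.5c, fastp 0.23.2, featureCounts 2.0.1 and the mm10 build were used by the authors, per the submitters' processing notes. For unstressed libraries, featureCounts ran over RefSeq exons with no strand option, per the file headers; for stressed libraries, the sources used here give neither the command nor the annotation release. In a series table, 3 columns matched no listed sample and were left out.

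The Ensembl and RefSeq gene models were matched on symbol (26660) or on position alone (910), which kept 94.8% to 99.1% of the counts in a library. Printed CPM use each library's full total. The log2 CPM behind each r were TMM-scaled over the genes tested, with a prior count of 2. In R 4.3.3, edgeR 4.0.16 quasi-likelihood tests (TMM scaling, filterByExpr, 1 fit over 12 libraries, no replicate block) gave 6 comparisons and 1 test of any difference, with Benjamini-Hochberg adjustment at 0.05 over 13942 genes; the script was tested on simulated data. Standard errors come from the test statistic. Limits on counts of 0 use 3 counts and cover counting error only, as reads carry no molecular identifiers. DESeq2 1.42.0 and limma 3.58.1 were alternatives.

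Same-numbered psilocybin and vehicle libraries deviated together across genes (r of 0.112, 0.213 and 0.115), which no label explains. So did vehicle and unstressed libraries (0.0201, 0.131 and 0.0953) and psilocybin and MDMA libraries (0.225, 0.0242 and 0.214). In the other comparisons r ran from -0.109 to 0.318. The values printed come from the fit without a block, and a fit with one was an alternative. The members, lists and motifs were chosen with earlier results of these data known. Other genes named were list members past the threshold (at most 4 a list by smallest p), Lamp1, Lgmn, Grn, Psap and Cd63, and the 2 genes most like each member with a mean of at least 20 CPM; Ctso, Ctsg, Cstb and Calcr were named after their values were seen.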

Additional observations from a re-analysis of the deposited data

How the results depend on the processing

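Over 786 refits of the members' fold changes, 3 passed the threshold (2 for Ctsh and 1 for Ctsl, given with those genes) and 54 had the opposite sign, 51 of them within 1 standard error of 0 in both fits. The other 3 reversals were Ctsk in vehicle against unstressed, at -1.75 with limma voom, and Ctsz without vehicle library 1, at 0.689 in MDMA against vehicle and -0.653 in vehicle against unstressed (ranges with 1 library left out -0.532 to 0.689 and -0.653 to 0.647); the cause was not tested. The number of members called stayed at 0 of 10 except for 1 (Ctsl) in psilocybin against unstressed with only the 6 libraries compared, 1 (Ctsl) in any difference without vehicle libraries 1 and 3 (vehicle then 1 library), and 0 to 1 (Ctsh, without vehicle library 2) with 1 library left out in either drug comparison with vehicle. The replicate block called 0 members in all comparisons.

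Counts over all genes were far less stable. They are given here in the order psilocybin against vehicle, MDMA against vehicle, psilocybin against unstressed, MDMA against unstressed, vehicle against unstressed and any difference, where the reported counts were 2, 94, 12, 17, 477 and 81. DESeq2 gave 1061, 1336, 245, 218, 1746 and 1423, and limma voom 436, 887, 120, 147, 1404 and 827. The replicate block gave 0, 0, 5, 5, 10 and 16. Without 1 library they ran from 0 to 3575, 0 to 3652, 3 to 5, 2 to 4, 8 to 3658 and 11 to 2496, each of the counts above 2000 without vehicle library 2. With no filter, psilocybin against vehicle gave 7, psilocybin against unstressed 51, MDMA against unstressed 65, vehicle against unstressed 291 and any difference 276. With DESeq2's size factors in edgeR, psilocybin against vehicle gave 0, MDMA against vehicle 3 and vehicle against unstressed 298, and the median log2 fold change of all genes in psilocybin against vehicle was 0.12 in place of 0.31, that in MDMA against vehicle 0.10 in place of 0.24 and that in vehicle against unstressed 0.00 in place of -0.18. Without vehicle libraries 1 and 3, both drug comparisons with vehicle gave 0 and any difference 513. The 9 stressed libraries alone gave 0 in both drug comparisons with vehicle. Only the 6 libraries compared gave 0, 0, 1377, 235 and 2 for the 5 pairs in that order. Only genes with nearly the same exons (2440 tested, with Ctss and Ctsz as the members) gave 0 in both drug comparisons with unstressed, 25 in vehicle against unstressed and 0 in any difference. Psilocybin against MDMA gave 0 in every setting run, DESeq2 and limma voom included.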
